A study of Mus musculus with 14 samples.

Results

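This is an account of 150 genes whose transcripts were among the most abundant in mouse germinal vesicle (GV) oocytes and stayed within a 2-fold range of that level after ovulation. They were chosen by measured values in the WT libraries. Among the 16196 genes in both deposited count tables, 5215 had a ratio of mean ovulated WT to mean GV WT CPM, the count scaled to the library total, between 0.5 and 2. The 150 of these with the highest mean GV WT CPM are the members, of 18507 genes in either table. The level in GV WT oocytes and the WT stage ratio are therefore descriptions here and carry no test. The same ratio in CKO libraries was not used by the rule, and the CKO against WT differences share the WT libraries with it.

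Ovulated CKO oocytes gave 3 libraries, ovulated WT oocytes 3, GV CKO oocytes 4 and GV WT oocytes 4. All mice carried Mfffl/fl, floxed alleles of Mff, whose product recruits the fission GTPase DRP1 to the outer mitochondrial membrane. CKO mice also carried Gdf9-Cre, which drives Cre recombinase from an oocyte promoter, and WT mice did not carry it. The sources used here give neither ages nor how many oocytes and mice each library came from, and the p-values therefore describe spread among libraries, which may be technical. All libraries are SMART-SeqII cDNA.

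A fully grown oocyte has stopped transcribing, and the mRNAs it holds at the GV stage must serve meiotic maturation, fertilisation and the first cell cycle of the embryo. During maturation part of this store is deadenylated and destroyed, and another part is kept. Translation of stored mRNAs is switched on or off through the length of the poly(A) tail, which CPEB1 controls at U-rich cytoplasmic polyadenylation elements (CPE) near the 3′ end. SMART-seq reverse transcription starts at the poly(A) tail, so a change in tail length and a change in molecule number cannot be told apart in these counts. CPM is a share of a library, and less RNA per oocyte and fewer oocytes cannot be told apart either.

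Library totals lay between 26575593 and 28847424 counts. The smallest count of any member other than Mff was 2601, for which the counting error alone is 1.96%, so the spread between libraries and not depth limited the comparisons. Mff itself is a member, at rank 84 by GV WT level. It measured 39.2, 63.6 and 66.8 CPM in ovulated CKO libraries, against 363, 346 and 723 CPM in ovulated WT libraries. In GV oocytes it measured 38.0, 34.0, 35.3 and 34.1 CPM in CKO libraries, against 644, 560, 531 and 663 CPM in WT libraries. The CKO and WT libraries did not overlap at either stage. Since it is the deleted gene, it is left out below wherever 149 members are counted. Summed markers of oocytes (20 genes, 6 of them members) were 24445 to 46827 CPM over all libraries, those of granulosa and cumulus cells (30 matched genes) 497 to 1249 CPM and those of blood, immune cells and stroma (20 genes) 24.2 to 139.7 CPM.

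Mean GV WT levels of the members ran between 312 CPM and 10429 CPM, with a median of 680 CPM, and 46 members had at least 1000 CPM. The first 10 held 31.0% of the members' summed CPM. Per transcript length, the highest mean levels in GV WT oocytes were those of Obox2 (8273 FPKM), H1f8 (5984 FPKM), Gdf9 (5644 FPKM), Obox1 (5472 FPKM) and Dppa3 (5341 FPKM). Obox1 and Obox2 encode oocyte homeodomain proteins. H1f8 encodes the oocyte linker histone, Gdf9 the growth factor by which the oocyte governs its granulosa cells, and Dppa3 the maternal factor STELLA, which protects the maternal genome from demethylation. The median member had 350 FPKM and the lowest 31.3 FPKM.

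The annotated 3′ ends of some members hold the letters of a CPE. The following 30-base stretches hold a CPE within the last 100 bases of the annotated 3′ UTR. Spin1, Obox2, Obox1, Gdf9 and H1f8 are shown as the most abundant members that hold one. Btg4 and Plat are shown as mRNAs listed as recruited for translation at maturation, and the polyadenylation of Plat is classical. Other abundant members with a CPE there, such as Tcl1 and Bcl2l10, are not shown. The stretches are read 5′ to 3′ from GENCODE M21 transcripts on GRCm38, and each lies on the plus strand. Capitals mark the CPE, TTTTAT or TTTTAAT, and in Gdf9 also the polyadenylation hexamer AATAAA.
Spin1, chr13:51152481-51152510: taatTTTTATaattatgatgtaactcttat
Obox2, chr7:15398486-15398515: aattTTTTATtgttagagtatatgttcatt
Obox1, chr7:15556807-15556836: aattTTTTATtgttagagtatatgttcatt
Gdf9, chr11:53437862-53437891: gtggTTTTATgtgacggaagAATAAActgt
H1f8, chr6:115950165-115950194: aagcTTTTATtgtctaataagctgtcacaa
Btg4, chr9:51119805-51119834: ccctTTTTATgtctttttaaaagtttgatt
Plat, chr8:22782752-22782781: tataTTTTAATctattttagtttttacttt

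The stretches of Obox1 and Obox2 are identical letter for letter. Which 3′ end the oocytes used was not measured. Over all members, 40 of the 145 with an annotated 3′ UTR of at least 100 bases (27.6%) held a CPE in the last 100 bases of the transcript strand, overlapping matches included. The share was 19.8% among all genes tested (2383 of 12019). It was 14.5% (24 of 166) among 197 genes at least as abundant in GV WT oocytes whose WT ratio lay below 0.5, and 46.0% (29 of 63) among 65 as abundant genes whose ratio lay above 2. A hexamer, AATAAA or ATTAAA, stood in the last 40 bases of 127 of the same 145 members (87.6%) and 9269 of the same 12019 genes (77.1%). The next 2 shares are over 3′ UTRs of any length, in 150 members and 12850 tested genes with a transcript. A Pumilio motif, TGTANATA, was found anywhere in the 3′ UTR of 24.0% of the members and 24.3% of these genes. The AU-rich TATTTAT was found in 19.3% of the members and 27.3% of these genes. These are matches of letters in annotated windows and not measured binding sites. No test was made of these shares, because the sets were cut by the ratio.

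**Figure D1:**
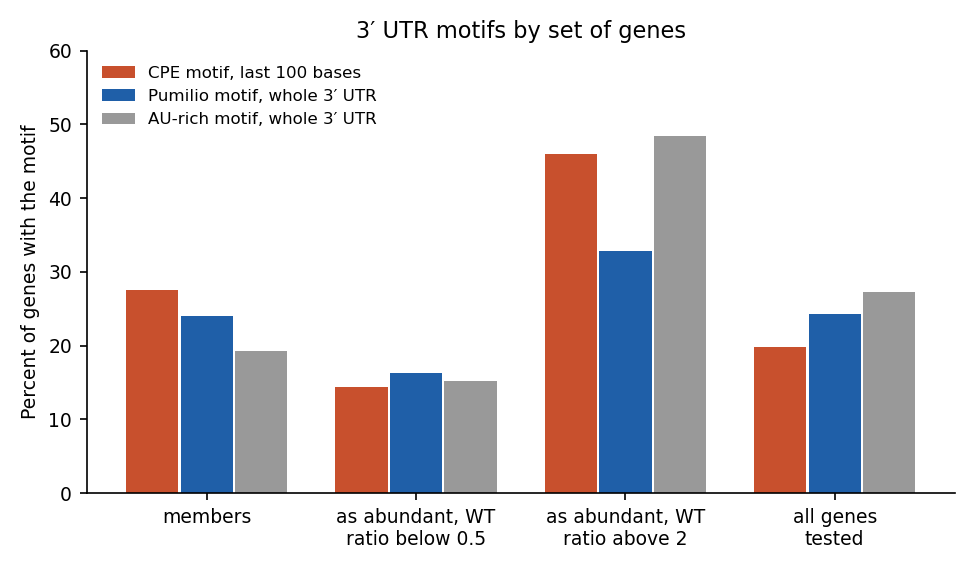
Percent of genes with 3 kinds of 3′ UTR motif, for the members, for genes at least as abundant in GV WT oocytes with a WT ratio below 0.5 or above 2, and for all genes tested. The CPE share of the members, 27.6%, lies between the 14.5% of the genes below the range and the 46.0% of those above it.

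The 12 members with the highest GV WT counts show what the range of 0.5 to 2 covers. Spin1, a spindle-associated chromatin reader, had 17688, 10822 and 17784 CPM in ovulated CKO libraries and 18785, 18863 and 21749 CPM in ovulated WT libraries. In GV oocytes it had 12478, 12721, 10198 and 10526 CPM in CKO libraries and 9651, 11783, 10260 and 10022 CPM in WT libraries. Every ovulated WT library was above every GV WT library, and 1 ovulated CKO library, replicate 2, lay among the GV CKO libraries. Gdf9 had 8858, 4874 and 4258 CPM in ovulated CKO libraries and 9540, 7067 and 10698 CPM in ovulated WT libraries. In GV oocytes its levels were 5579, 5112, 8634 and 12144 CPM in CKO and 9246, 7342, 8117 and 10544 CPM in WT. All 4 groups of Gdf9 overlapped.

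Tcl1, the first of a cluster of oocyte AKT cofactors, averaged 7220 ± 2022 CPM in ovulated CKO and 9806 ± 3446 CPM in ovulated WT oocytes, against 5369 ± 629 CPM in GV CKO and 5306 ± 185 CPM in GV WT oocytes (SD, n = 3, 3, 4 and 4). Hsp90aa1, the inducible HSP90 chaperone, was the steadiest of the 12, with a coefficient of variation (CV) of 13.8% over the 14 libraries. Bcl2l10, an oocyte member of the BCL2 family, had 6967, 4989 and 6217 CPM in ovulated CKO libraries and 7411, 6435 and 8346 CPM in ovulated WT libraries. In GV oocytes it had 4155, 4117, 4178 and 4544 CPM in CKO and 4033, 3612, 3724 and 4113 CPM in WT. On library totals, ovulated libraries of both genotypes thus stood above all GV libraries. On the TMM scale the CKO stages overlapped, at 5002 ± 1178 CPM in ovulated CKO and 4630 ± 957 CPM in GV CKO oocytes (SD, n = 3 and 4). Btg4, the adaptor that brings the CCR4-NOT deadenylase to maternal mRNAs, showed the same order on library totals, except in CKO replicate 2. There the GV library (5094 CPM) was above the ovulated library (4705 CPM). Fbxw24, an oocyte F-box protein, ran the other way, with means of 3738 ± 1047 CPM in ovulated CKO and 2537 ± 459 CPM in ovulated WT oocytes against 5224 ± 865 CPM in GV CKO and 4654 ± 577 CPM in GV WT oocytes. Oas1d, an oocyte oligoadenylate synthetase-like protein, reached 4945 CPM in 1 ovulated CKO library and 2041 and 1905 CPM in the others, all below or within the 4293 to 6974 CPM of the ovulated WT libraries.

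**Figure D2:**
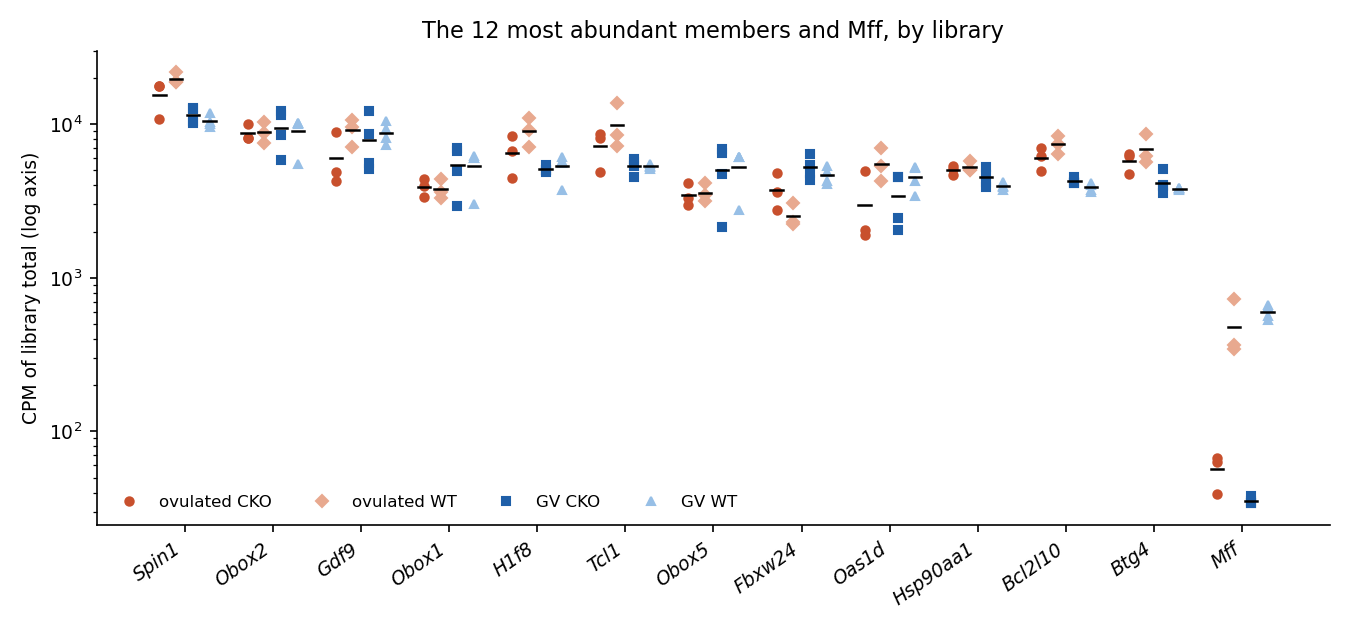
CPM of the 12 members with the highest mean GV WT CPM, and of Mff, on a log axis, with 1 point per library and a bar at each group's mean. Mff is the one gene shown in which CKO and WT libraries are separated at both stages, at 34.0 to 66.8 CPM in CKO and 346 to 723 CPM in WT.

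Together the members held 23.8%, 19.4% and 23.0% of all counts in the ovulated CKO libraries and 24.7%, 23.0% and 28.9% in the ovulated WT libraries. In GV oocytes they held 17.3%, 22.1%, 21.3% and 20.96% in CKO libraries and 20.9%, 18.2%, 20.3% and 21.3% in WT libraries. The group means were 22.0 ± 2.33% in ovulated CKO, 25.6 ± 3.03% in ovulated WT, 20.4 ± 2.12% in GV CKO and 20.2 ± 1.41% in GV WT oocytes (SD, n = 3, 3, 4 and 4). The ovulated WT libraries were above all GV libraries, and the ovulated CKO libraries overlapped every other group. The 197 equally abundant genes whose WT ratio fell below 0.5 held 7.29 ± 1.94% in ovulated CKO and 4.24 ± 0.0975% in ovulated WT, against 35.9 ± 6.599% in GV CKO and 39.98 ± 5.41% in GV WT. Of 412 genes at or above the lowest member's GV WT level, the members were 36.4%, and 65 had a ratio above 2.

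These shares set the scale on which a stage change is read. Clec16a, Hexdc, Hddc3 and Dnajc14, the only genes above Spin1 in GV WT oocytes and none of them a member, took 0.457% to 0.707% of the counts in ovulated libraries and 9.24% to 19.13% in GV libraries. With these 4 out of the total, the members' share was 22.2 ± 2.34% in ovulated CKO and 25.7 ± 3.02% in ovulated WT, against 23.7 ± 3.11% in GV CKO and 24.3 ± 2.54% in GV WT. TMM normalisation, used for the tests, corrects for such genes. For ovulated against GV oocytes in CKO, the median log2 change of all genes was -0.19 on the TMM scale and 0.33 on library totals, a shift of 0.52.

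**Figure D3:**
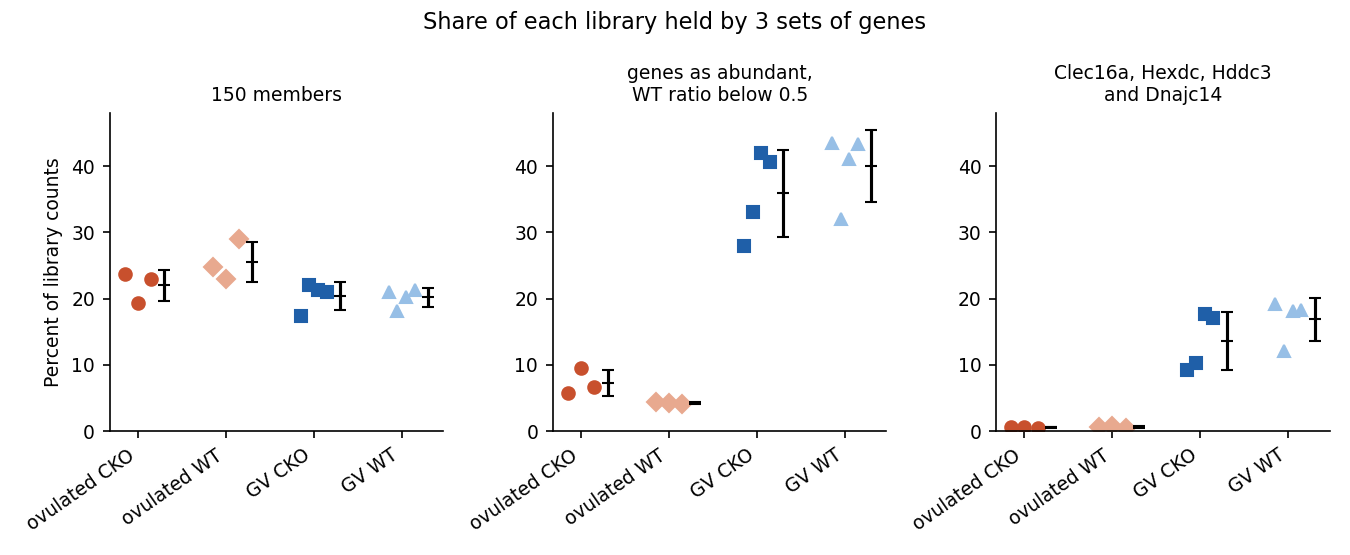
Percent of each library's counts held by the 150 members, by 197 genes at least as abundant in GV WT oocytes with a WT ratio below 0.5, and by the 4 most abundant genes, with 1 point per library and the mean ± SD beside it. The members' share lies between 17.3% and 28.9% in every library, whereas the second set is at most 9.49% in ovulated libraries and at least 27.9% in GV libraries.

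In WT oocytes, where the rule set the limits, the ratio of ovulated to GV mean CPM ran between 0.510 and 1.99 with a median of 1.16, and 93 of 149 members were above 1. Just inside the lower limit were Sfr1 (0.510) and C87414 (0.531), and just outside were Nlrp4f (0.498) and Nlrp5 (0.495), which encodes MATER. At the upper limit Rbbp7 (1.99) and Btbd10 (1.99) were inside, and Tm9sf2 (2.00) and AI987944 (2.02) outside. By level, Asf1a and Vps26a were the last to enter, at 313 and 312 CPM in GV WT oocytes, and Golga7 and Cs, both at 311 CPM, were left out.

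CKO oocytes kept nearly all of these transcripts in the same range. The ratio of ovulated CKO to GV CKO mean CPM was within 0.5 to 2 for 144 of the 149 members (96.6%), with a median of 1.04. The same held for 3365 of 7792 other genes with a GV CKO mean of at least 5 CPM (43.2%) and for 36 of the 197 abundant genes below the range in WT (18.3%). These shares are not a like comparison, since the members were chosen to lie within the range in WT. The 7792 genes were not chosen by a WT ratio and include far less abundant ones. The share among other genes inside the WT range was not computed. The 5 members outside the range in CKO are named here because they are few, after their values were seen. Sfr1 was at 0.487, Trim75 at 0.488 and C87414 at 0.498. Riok1, an atypical kinase of ribosome maturation, was at 2.01, and Polr2j, an RNA polymerase II subunit, at 2.07. Leaving out single CKO libraries put between 141 (without GV CKO 1) and 149 (without GV CKO 3) of the 150 inside.

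The ratios of the members were also ordered alike in both genotypes. Across the 149 genes the log2 ratios in CKO and WT, which rest on different libraries, had a Pearson r of 0.830 and a Spearman rho of 0.835, as a description across genes that share libraries and normalisation within each genotype. Of 93 members above 1 in WT, 76 were above 1 in CKO, and of 56 at or below 1 in WT, 50 were at or below 1 in CKO. In 97 of 149 members the CKO ratio lay closer to 1 on the log scale. Whether the stage change differed between genotypes was not tested, since the rule fixed it in WT.

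**Figure D4:**
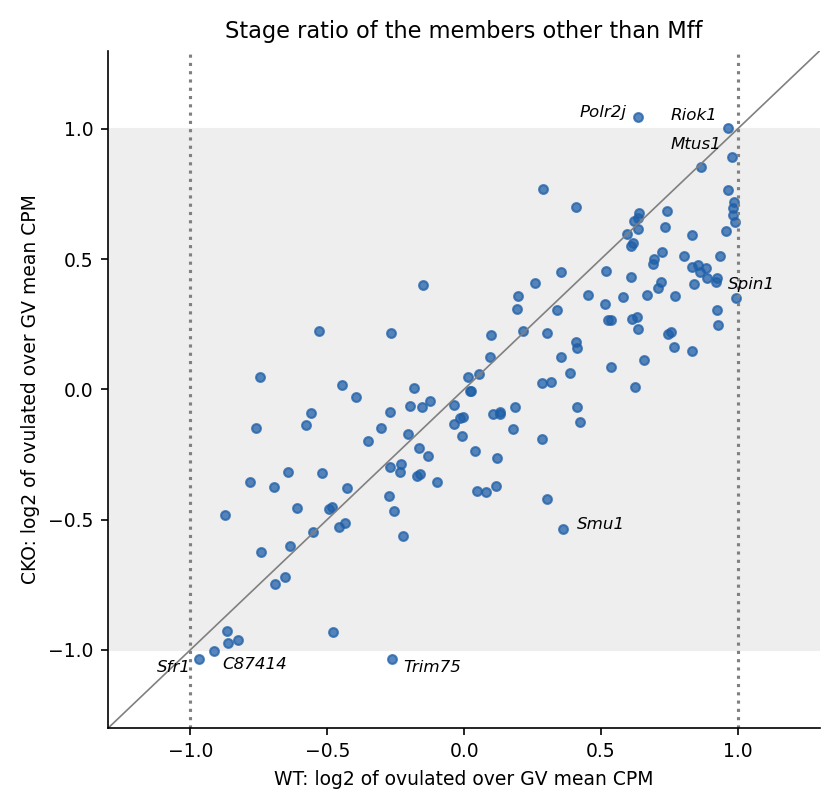
Log2 ratio of ovulated to GV mean CPM in CKO oocytes (vertical) against WT oocytes (horizontal) for the 149 members other than Mff, with the range of 0.5 to 2 shaded for CKO and dotted for WT and a line of equality. Points scatter along the line between 0.487 and 2.07 in CKO, and 5 lie outside the shaded band.

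Within CKO oocytes, 44 members were lower in ovulated than in GV libraries and 0 were higher (edgeR quasi-likelihood test, adjusted p under 0.05). Of all 13199 genes tested, 31.2% were lower and 23.2% higher. The rule bounded the WT ratio on library totals, and the CKO ratios were ordered like it, so these counts are not independent of the rule. Of the 65 as abundant genes with a WT ratio above 2, 22 were higher and 0 lower. Of the 197 with one below 0.5, 0 were higher and 194 lower. The part of the rule's limits in the members' counts was not tested. The members' median log2 change was -0.52 on the TMM scale, against -0.19 for all genes, and 106 of 149 were below that all-gene median. On library totals the calls among all 150 were 12 lower and 27 higher, Mff being 1 of the 27. Of all 13199 genes, 2575 were lower and 4076 higher on that scale. The median of the 149 members other than Mff was 0.06 there, against 0.33 for all genes. The members thus lay 0.32 and 0.27 below the median gene on the 2 scales. The 12 are all among the 44, and 11 members were lower under all 23 alternatives tried, namely Bbs4, C87414, Cct8, Eif4e, Fbxw28, Jpt2, Nudt7, Orc5, Rab7, Sfr1 and Ssb. Among the 150, 1 member had an unadjusted p under 0.05 by edgeR for a rise, against 3387 of 13199 genes. With no filter, with a filter at a mean of 10 CPM and without GV CKO 1, 1 rise passed, against 3425, 2169 and 3137 over all genes. DESeq2 called 2 rises and 40 falls, against 3526 and 4104 among 13191 genes. Of single libraries, the count of falls was 74 without GV CKO 1, 29 without GV CKO 3 and 26 without ovulated CKO 2. Over all genes it was 4185 of 13112, 3788 of 13166 and 4257 of 13475 in the same order. Summed markers of blood, immune cells and stroma, none of them a member, were 55.9 to 106 CPM in ovulated CKO and 27.7 to 45.6 CPM in GV CKO libraries, with 10 of 20 (Ptprc and Cd74 among them) at 0 in ovulated CKO oocytes, and those of granulosa cells overlapped. Of the granulosa and cumulus markers 18 were tested, with 2 called higher and 10 lower in ovulated CKO. Of those of blood, immune cells and stroma 7 were tested, with 1 called higher and 0 lower. The part of these markers in the result was not tested.

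The falls that were largest among called members with separate groups are given by library in CPM of library totals, and their fold changes on the TMM scale. Sfr1 had 602, 575 and 520 CPM in ovulated CKO libraries, against 1072, 1189, 1180 and 1201 CPM in GV CKO libraries. Its log2 change was -1.61 (SE 0.28, adjusted p = 0.000136 by edgeR), and WT oocytes had 549, 521 and 521 CPM after ovulation against 1071, 1017, 1009 and 1057 CPM at the GV stage. Eif4e, the cap-binding translation factor, had 393, 459 and 552 CPM in ovulated CKO libraries, against 879, 1145, 844 and 783 CPM in GV CKO libraries. The log2 change was -1.51 (SE 0.28, adjusted p = 0.000241 by edgeR), and no ovulated library reached a GV one. Orc5, a subunit of the replication origin complex, had 671, 595 and 714 CPM in ovulated CKO libraries, against 974, 1597, 1355 and 1266 CPM in GV CKO libraries, a log2 change of -1.56 (SE 0.32).

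C87414, an oocyte gene of little-known role, fell by 1.59 on the log2 scale, with 1278, 1149 and 1481 CPM in ovulated CKO against 1939, 2709, 2959 and 2853 CPM in GV CKO libraries. Bbs4, a BBSome subunit that carries cargo to cilia, fell by 1.53 and stood at 126 to 179 CPM in ovulated CKO libraries, against 228 to 330 CPM in GV CKO libraries. Cct8, a subunit of the TRiC chaperonin, fell by 1.48, with 186 to 237 CPM after ovulation, against 366 to 491 CPM at the GV stage. Fbxw28 fell by 1.28 and Jpt2 by 1.22. All adjusted p-values of these falls lay between 0.000136 and 0.00321 by edgeR. Trim75 had the most negative estimate of the 44, -1.65, but 1 of its ovulated CKO libraries (254 CPM) was above 1 of its GV CKO libraries (163 CPM).

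**Figure D5:**
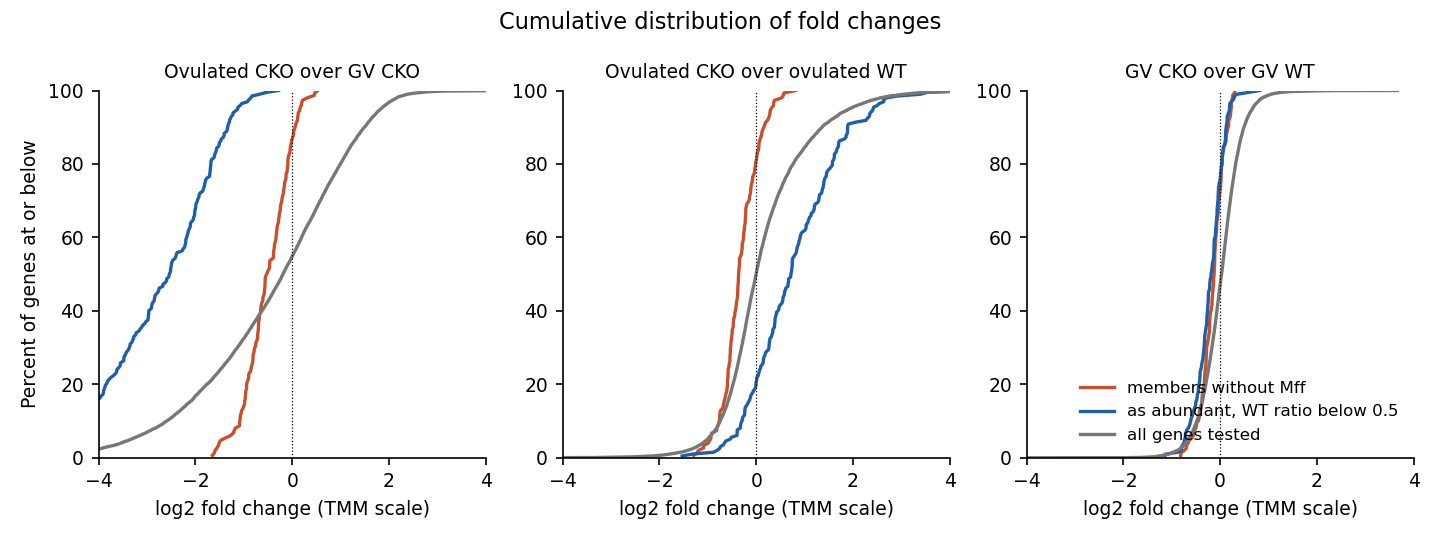
Cumulative distribution of log2 fold changes on the TMM scale for the 149 members, for 197 equally abundant genes below the range in WT and for all genes tested, in ovulated CKO over GV CKO, ovulated CKO over ovulated WT and GV CKO over GV WT. The members span a narrower interval than all genes, with medians of -0.52, -0.36 and -0.12.

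By role, grouped after the values were seen, the members divide into 9 sets. The largest was that of oocyte-specific families with 30 members, among them Obox, Tcl1, Fbxw, Nlrp and Trim genes, which held 73907 CPM together in GV WT oocytes. In CKO, 11 of the 30 were lower after ovulation and 0 higher, with a median log2 change of -0.70. Of all genes tested 31.2% were lower and 23.2% higher, with a median of -0.19. Each count of falls by role, here and below, is to be read against these shares. The 4 Obox members illustrate the spread behind these calls. Obox1 had 3973, 3375 and 4407 CPM in ovulated CKO libraries, against 2935, 6685, 7008 and 4945 CPM in GV CKO libraries, so the groups overlapped. Its log2 change was -1.07 (adjusted p = 0.0465 by edgeR), and Obox5 (-1.18, adjusted p = 0.0462 by edgeR) and Obox7 (-1.39, adjusted p = 0.0307 by edgeR) were alike. Obox2 (-0.71, adjusted p = 0.15 by edgeR) did not pass. GV CKO 1 and GV WT 2 were the low libraries of their groups for all 4, at 2935 and 3007 CPM for Obox1.

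These Obox calls were lost under many alternatives. Obox1 was called in 5 of 23 (adjusted p up to 0.241 by edgeR, DESeq2 or limma), Obox5 in 6 of 23 (up to 0.285) and Obox7 in 15 of 23 (up to 0.219), while all stayed negative. Without GV CKO 1, GV CKO 2 and GV WT 2, the log2 changes were -1.38 for Obox1, -0.95 for Obox2, -1.52 for Obox5 and -1.78 for Obox7, with adjusted p-values of at most 0.00507 by edgeR, the lowest of any alternative for Obox1, Obox5 and Obox7. The count of members that fell was then 84 of 150, against 44 with all libraries. Over all genes 3936 of 13317 fell then, against 4123 of 13199 with all libraries.

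Secreted factors, proteases and egg surface proteins numbered 8, and 1 fell in CKO. Bmp15, the partner of GDF9, had 3231, 3581 and 3255 CPM in ovulated CKO libraries, against 3020, 3374, 3728 and 4150 CPM in GV CKO libraries, and its log2 change of -0.68 missed the threshold (adjusted p = 0.0628 by edgeR). Oosp2, an oocyte secreted protein, fell by 0.68 (adjusted p = 0.0338 by edgeR), with 414, 821 and 517 CPM in ovulated CKO against 816, 853, 490 and 427 CPM in GV CKO libraries, which overlap, and it was called in 14 of 23 alternatives. Plat, tissue plasminogen activator, had 5267, 2385 and 2466 CPM in ovulated CKO and 6075, 4626 and 6996 CPM in ovulated WT libraries. At the GV stage it had 1552, 1678, 2768 and 3661 CPM in CKO and 4300, 2396, 3821 and 4120 CPM in WT. Its CV over the 14 libraries, 44.0%, was among the 4 highest of the members.

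Meiotic regulators and spindle genes made up 11 members, of which 3 fell. Cyclin B1 (Ccnb1), the activator of CDK1, had 3184, 2031 and 2951 CPM in ovulated CKO libraries and 3059, 2728 and 4982 CPM in ovulated WT libraries. In GV oocytes it had 1719, 2955, 2666 and 2724 CPM in CKO and 2214, 2281, 2043 and 2572 CPM in WT, and its CKO stage change of -0.47 did not pass (adjusted p = 0.293 by edgeR). Prc1, which bundles the microtubules of the spindle midzone, had 925, 651 and 770 CPM in ovulated CKO against 404, 513, 407 and 406 CPM in GV CKO libraries. These did not overlap on library totals, where the log2 change was 0.85, while the TMM estimate was 0.31 (adjusted p = 0.347 by edgeR). The kinases of metaphase arrest are represented by Mos, at 607 to 877 CPM in ovulated CKO and 882 to 1252 CPM in ovulated WT libraries.

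RNA-binding, splicing and translation genes gave 18 members with 4 falls, Eif4e among them. Genes of chromatin, transcription and DNA repair gave 21 with 4 falls. Gtf2b, the TFIIB initiation factor, fell by 1.08 (adjusted p = 0.0248 by edgeR) and had 715, 946 and 843 CPM in ovulated CKO libraries, against 670, 1364, 1407 and 1131 CPM in GV CKO libraries. These overlap, and the call held in 15 of 23 alternatives. Ubiquitin, proteasome and chaperone genes gave 19 with 7 falls, including Cct8, Psma7 (-0.98, called in 22 of 23 alternatives) and Ube2t (-0.69). Ube2t was called in 5 of 23 alternatives, with adjusted p up to 0.624 by the tools run, and its 578, 1109 and 1388 CPM in ovulated CKO libraries spanned the 979 to 1256 CPM of the GV CKO libraries. Membrane traffic and cytoskeleton genes gave 17 with 9 falls, the largest share of any set. Rab7, the late endosomal GTPase, had 509, 498 and 480 CPM in ovulated CKO, against 557, 814, 853 and 785 CPM in GV CKO libraries, a log2 change of -1.20. Cdc42 (-0.81), which orients the spindle through cortical actin, and Rab11a (-0.71), of the vesicles that carry actin nucleators, were also called lower, with adjusted p-values of 0.0292 and 0.0401 by edgeR. Cdc42 was called in 11 of 23 alternatives (log2 change as small as -0.22, adjusted p up to 0.377 by the tools run) and Rab11a in 9 of 23 (as small as -0.13, up to 0.591), so both calls ended under most of them. Of metabolic and mitochondrial genes, 2 of 15 fell, and of signalling, survival and little-known genes 3 of 10. The share of each set that fell is to be read against the 31.2% of all genes.

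Lists of genes by function, drawn up with earlier results known, held 73 of the 150 members. Among 42 mRNAs known to be recruited for translation at maturation, 9 were members. In CKO 2 of these 9 (Gtf2b and Obox5) were lower after ovulation, while over the 41 tested genes of that list 13 rose and 11 fell. The subcortical maternal complex and maternal-effect list had 5 members, Spin1, Dppa3, Rnf114, Dnmt1 and Atg5, of which 0 were called, against 11 rises and 17 falls among the 38 genes of the list. Of the 82 cytosolic ribosomal protein genes, 5 reached the lowest member's GV WT level and 0 were members. Genes below that level could not be members at any stage ratio. In CKO, 70 of the 82 fell and 3 rose. Of the 80 respiratory chain and ATP synthase genes, 2 reached that level and 1 was a member, Atp5b. In CKO, 47 of the 79 tested fell and 7 rose. Of the 59 matched genes of mitochondrial dynamics, import and transport, 5 reached that level and 1 was a member, Mff itself.

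After ovulation CKO oocytes had lower levels than WT oocytes of a few members. Of 150 members 5 were called lower and 0 higher (edgeR, adjusted p under 0.05), against 1.4% of 12010 genes lower and 6.44% higher. Apart from Mff (-3.31, SE 0.36), they were Surf4, Smu1, Neil3 and Nlrp4b. At an unadjusted p under 0.05 by edgeR, 35 of 149 were lower and 2 higher, against 1040 lower and 1755 higher of all 12010 genes. DESeq2 called 15 of the 150 lower and 1 higher, against 457 lower and 1136 higher of 12006 genes. The ovulated WT values that helped choose the members are the denominator here, so these counts describe the members and support nothing about them as a set.

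Surf4, the cargo receptor of the endoplasmic reticulum exit sites, had 385, 385 and 340 CPM in ovulated CKO libraries, against 795, 510 and 895 CPM in ovulated WT libraries. Every CKO library lay below every WT library, at a log2 difference of -1.20 (SE 0.27, adjusted p = 0.0150 by edgeR). Smu1, a spliceosome factor, had 765, 342 and 500 CPM in ovulated CKO libraries, against 1074, 931 and 1317 CPM in ovulated WT libraries. The groups were again separate, with a log2 difference of -1.23 (SE 0.33, adjusted p = 0.0323 by edgeR). Neil3, a DNA glycosylase, had 422, 306 and 497 CPM in ovulated CKO libraries, against 708, 638 and 941 CPM in ovulated WT libraries, and its log2 difference was -1.09 (SE 0.30, adjusted p = 0.0347 by edgeR).

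Nlrp4b, an oocyte NLR-family gene, had 598, 427 and 472 CPM in ovulated CKO libraries, against 818, 791 and 905 CPM in ovulated WT libraries. Its log2 difference was -0.93 (SE 0.26, adjusted p = 0.0385 by edgeR). Degs1, the dihydroceramide desaturase, was next, at 745, 732 and 914 CPM in ovulated CKO against 1271, 1050 and 1622 CPM in ovulated WT libraries, and missed the threshold (-0.92, adjusted p = 0.0549 by edgeR). In the other direction Oosp2 was highest, with 414, 821 and 517 CPM in ovulated CKO against 255, 348 and 254 CPM in ovulated WT libraries (0.82, adjusted p = 0.0678 by edgeR). Leaving out ovulated CKO 2, ovulated WT 1 or ovulated WT 3 left Mff as the only member called lower, leaving out ovulated CKO 3 left 3, and leaving out ovulated CKO 1 gave 16. Over all genes the lower counts were 33, 59, 34, 94 and 488 in the same order.

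As a description, the median log2 fold change of the 149 members was -0.36 in ovulated CKO over WT oocytes on the TMM scale, against -0.00 for all genes, and -0.18 against 0.19 on library totals. Without ovulated CKO 2 and ovulated WT 3, the libraries farthest out, the median over all 150 was -0.10, against 0.01 for all genes. In 26 members all CKO libraries lay below all WT libraries in CPM, and in 12 above. Of 7814 genes with a mean of at least 5 CPM, 8.63% were below and 19.9% above in that way. Sets cut by the WT ratio share the ovulated WT libraries with this comparison. The part of that choice in their medians was not tested. The 197 abundant genes chosen for a WT ratio below 0.5 had a median of 0.72, and the 65 chosen for one above 2 had a median of -0.43. Nothing is read from these medians.

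Granulosa and cumulus markers differed here in their sum only. Of 8 tested, 0 were called higher and 0 lower, with a median log2 fold change of -0.00. Their sum over 30 genes was 497 to 897 CPM in ovulated CKO libraries and 971 to 1249 CPM in ovulated WT libraries, without overlap. In all libraries of the group, 13 of the 30 were at 0 in ovulated CKO oocytes and 9 in ovulated WT oocytes, Amhr2, Foxl2, Inha and Fst in both. None of the 30 is a member. Summed oocyte markers overlapped, at 24445 to 30944 CPM in ovulated CKO and 24500 to 32661 CPM in ovulated WT libraries. One by one, 7 of the 19 tested were called higher in CKO and 0 lower, with a median log2 fold change of 0.50. The 6 that are members had 0 calls and a median of -0.34. The part of granulosa RNA in the members' differences was not tested.

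At the GV stage no member other than Mff passed the test between CKO and WT oocytes. Mff was called lower (-4.27, SE 0.31, adjusted p = 0.000103 by edgeR), and of 12298 genes tested 0.00813% (1 gene) were lower and 0.00813% (1 gene) higher. Of the other 149 members 0 were called by edgeR or DESeq2. At an unadjusted p under 0.05 by edgeR there were 2 lower and 0 higher, against 416 lower and 403 higher of all 12298 genes. As a description, their median log2 fold change was -0.12, against 0.03 for all genes, and 0.02 against 0.16 on library totals. The GV WT values in the denominator ranked the members, so nothing is read from this median. Over all 150 it was 0.03 without GV CKO 1, -0.23 without GV CKO 3, -0.03 without GV WT 1, -0.05 without GV WT 4 and -0.26 without GV WT 2, against -0.13 with all libraries. In 5 members all CKO libraries lay above all WT libraries and in 4 below, against 1.34% and 1.27% of 7818 genes.

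The smallest p-values at the GV stage after Mff belonged to Ppp1r10, a regulatory subunit of protein phosphatase 1, and to Fbxo34, Surf4, Rab7 and Hmgcs1. Ppp1r10 had 229, 165, 243 and 296 CPM in GV CKO libraries, against 404, 321, 340 and 400 CPM in GV WT libraries. These groups did not overlap, but the log2 fold change of -0.81 (SE 0.33) had an adjusted p of 0.707 by edgeR. Rab7 had 557, 814, 853 and 785 CPM in GV CKO libraries, against 1068, 977, 989 and 1015 CPM in GV WT libraries (-0.56, adjusted p = 0.763 by edgeR). After ovulation its CKO libraries were also all below its WT libraries, at 480 to 509 CPM against 551 to 730 CPM (-0.59, adjusted p = 0.157 by edgeR). Surf4, called in ovulated oocytes, had 432, 341, 504 and 635 CPM in GV CKO libraries, against 705, 616, 642 and 744 CPM in GV WT libraries (-0.64, adjusted p = 0.763 by edgeR). The ovulated and GV comparisons use different libraries, and whether their sizes differ was not tested.

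The median CV of the members within a group was 16.9% in ovulated CKO, 14.1% in ovulated WT, 19.2% in GV CKO and 11.6% in GV WT oocytes. For genes with a mean of at least 5 CPM the medians were 25.3% in ovulated CKO, 21.5% in ovulated WT, 31.3% in GV CKO and 28.8% in GV WT oocytes, and such genes include many at lower counts. For the 197 equally abundant genes below the range, they were 37.9% in ovulated CKO, 18.1% in ovulated WT, 21.8% in GV CKO and 12.8% in GV WT oocytes. Over all 14 libraries the median CV of the members was 27.2%, computed, like the CVs that follow, on CPM of library totals. Ywhaz, a 14-3-3 protein, was the steadiest on that scale at 8.10%, with 507 to 623 CPM in ovulated CKO, 485 to 564 CPM in ovulated WT, 519 to 657 CPM in GV CKO and 554 to 586 CPM in GV WT libraries. Rsl1d1 (8.54%), the malic enzyme Me1 (10.0%) and Rab11a (10.7%) followed. On the TMM scale Ywhaz averaged 457 ± 74.0 CPM in ovulated CKO and 626 ± 138 CPM in GV CKO oocytes (SD, n = 3 and 4), and Rab11a was called lower, so the order holds for library totals. The least steady other than Mff were Dnmt1, the maintenance DNA methyltransferase (45.3%), Mtus1 (45.3%), Plat and Obox7 (43.1%).

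Dnmt1 had 601, 1059 and 571 CPM in ovulated CKO libraries and 578, 515 and 230 CPM in ovulated WT libraries. In GV oocytes it had 1090, 451, 277 and 438 CPM in CKO and 522, 655, 428 and 350 CPM in WT. The high values were those of ovulated CKO 2, GV CKO 1 and GV WT 2. Mtus1, a microtubule-associated protein, was likewise highest in GV CKO 1 (1008 CPM) and GV WT 2 (745 CPM) among GV libraries. In ovulated CKO 2, GV CKO 1 and GV WT 2 the members held 19.4%, 17.3% and 18.2% of counts, each the lowest share of its group.

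Several members are neighbours or near copies in the genome. Coordinates are those of GRCm38, the assembly that mm10 names. Tcl1 and 5 Tcl1b genes lie at chr12:105147019-105222737, Fbxw14, Fbxw22, Fbxw24 and Fbxw28 at chr9:109270789-109626059, Obox1, Obox2 and Obox5 at chr7:15388851-15759274 and Nlrp4a, Nlrp9a and Nlrp9c at chr7:26364691-26574148. Coding sequences of Fbxw14 and Fbxw28 were 99.1% identical, those of Fbxw14 and Fbxw22 92.3%, those of Obox1 and Obox7 87.8% and those of Nlrp9a and Nlrp9c 87.6%. Reads of such pairs may have been split between them, and 72 members had counts that were not whole in at least 1 library (tolerance 0.001), 27 of them in all 14. The values of these families are therefore uncertain one by one. Fbxw14 averaged 3451 CPM in ovulated CKO and 4127 CPM in GV CKO oocytes with a log2 change of -0.81 (adjusted p = 0.0409 by edgeR), a call that held in 9 of 23 alternatives. Fbxw28 averaged 2925 CPM in ovulated CKO and 4825 CPM in GV CKO oocytes.

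Within the members, those with a CPE in the last 100 bases had a median log2 stage change in CKO of -0.33 (40 genes) and those without one -0.56 (105 genes), on the TMM scale. Among all genes tested the medians were 0.37 (2383 genes) and -0.25 (9636 genes). The order was the other way among the abundant genes with a WT ratio below 0.5, at -3.07 with a CPE (24 genes) and -2.33 without (142 genes). Among those with a ratio above 2 the medians were 0.56 (29 genes) and 0.31 (34 genes). The quartiles of the members overlapped, at -0.75 and -0.10 with a CPE and -0.81 and -0.21 without. Obox5 and Ccnb1 held 4 CPE each in their whole 3′ UTR and 0 in the last 100 bases.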

How the data were processed

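For each stage the authors deposited estimated counts per gene, some not whole, and FPKM per gene, which scales reads by transcript length and depth. Per the submitters' processing notes the build was mm10. The aligner and counter are not named in those sources, and 0 value columns lacked a sample. CPM and shares were computed from the deposited counts. Tests used counts rounded to whole numbers in edgeR 4.0.16 (filterByExpr, TMM, robust quasi-likelihood, R 4.3.3), with each genotype contrast fitted within its stage and the CKO stage contrast in 1 fit of all 14 libraries, whose WT groups enter its estimate of spread, with Benjamini-Hochberg adjustment over all genes tested and a threshold of 0.05. Scripts were tested on simulated data. Alternatives were RLE and library-total scaling, no filter or a mean of at least 10 CPM, DESeq2 1.42.0, limma 3.58.1 on log2(FPKM + 1), a replicate block and omitted libraries.

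The 150 members and all lists were chosen with earlier results of these data known. Named genes are Mff, the most abundant members by CPM and FPKM, called members with the largest changes or smallest p, members leading each functional list, those of extreme CV, those at the rule's limits and near-identical families. Others named were chosen after their values were seen. The 3′ UTRs come from GENCODE M21 (1 representative transcript per gene), and gene positions from RefSeq on GRCm38.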

Additional observations from a re-analysis of the deposited data

Results flagged for a closer look

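The levels of named members, and the share of counts held by all members, were screened within each GV group. Of 104 groups of 4 values, 8 (7.69%) had 1 library far from the other 3 by Dixon's criterion (critical value 0.829), where chance flags about 5%. All 4 Obox members were flagged for a low value in GV WT 2. Obox1 measured 3007 CPM there, Obox2 5521 CPM, Obox5 2745 CPM and Obox7 409 CPM, while the other GV WT libraries held at least 6037, 10017, 6080 and 1180 CPM of the same genes. GV WT 2 sets part of their WT stage ratio, which without it was 0.621 for Obox1, 0.878 for Obox2, 0.588 for Obox5 and 0.518 for Obox7, against 0.711, 0.991, 0.682 and 0.620 with it. All 4 thus stayed inside the range of the rule.

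In GV CKO oocytes, Bcl2l10 was high in replicate 4 (4544 CPM, the others 4117 to 4178 CPM). Cct8 was high in replicate 2 (491 CPM, the others 366 to 384 CPM), as was Prc1 (513 CPM, the others 404 to 407 CPM). Sfr1 was low in replicate 1 (1072 CPM, the others 1180 to 1201 CPM).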

How the results depend on the processing

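All 44 members lower in ovulated than in GV CKO oocytes stayed negative under 23 alternatives, and the count was 12 on library totals, 18 with limma on log2(FPKM + 1), 84 without the 3 GV libraries that stand apart, 23 without the 2 ovulated libraries farthest out and 26 to 74 with single libraries left out. Over all genes the falls numbered 2575 on library totals and 3009 with limma, of 13199. They numbered 3936 of 13317 without the 3 GV libraries and 4240 of 13383 without the 2 ovulated libraries. With single libraries left out they numbered 3717 to 4257. Members higher numbered 27 on library totals, 24 with limma, 2 with DESeq2, 1 with RLE, no filter, the 10 CPM filter or either set of libraries left out, and 0 to 1 with single libraries left out. Over all genes the rises numbered 4076 on library totals, 4383 with limma and 3526 with DESeq2. Bcl2l10 turned to 0.51 on library totals and 0.46 with limma, and Btg4 to 0.48 on library totals.

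In ovulated CKO against WT oocytes the lower count was 10 with no filter, 3 with the 10 CPM filter, 15 with DESeq2, 1 with limma, 1 without the 2 libraries farthest out and 1 to 16 with single libraries left out. Over all genes it was 327 of 16509 with no filter, 61 of 6437 with the 10 CPM filter and 457 of 12006 with DESeq2. It was 33 of 12010 with limma, 21 of 12076 without the 2 libraries and 33 to 488 with single libraries left out. The higher count was 1 on library totals, with no filter and with DESeq2, and 0 to 1 with single libraries left out. Over all genes it was 894 on library totals, 1072 with no filter and 1136 with DESeq2. With the replicate block, 25 members were lower and 1 higher, against 562 lower and 1068 higher of all 12010 genes. Same-numbered libraries deviated together by r = -0.49 to 0.62 in GV and 0.02 to 0.34 in ovulated oocytes. Of these, 2 of 4 GV and 2 of 3 ovulated libraries correlated best with their own number. With so few libraries this cannot decide whether the numbers pair the samples, and the labels do not say. The cause of these changes was not tested. GV counts did not move under any of the 16 alternatives.

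Of the 150 members, 84 remained with ratio limits of 2/3 and 1.5, 103 by FPKM, 117 by TMM-scaled CPM, 143 by medians and 139 to 145 with single libraries left out. In CKO 138 to 149 stayed within 0.5 to 2. With Clec16a, Hexdc, Hddc3 and Dnajc14 out of the total, an alternative added after seeing the data, the members' share was 23.7% in GV CKO and 24.3% in GV WT. Of 2703 alternative values of 51 named genes, 2485 kept their side of the threshold, 144 lost it, 71 gained it and 3 reversed. Among 2037 values of genes called in neither setting, 215 had another sign.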
